A study of Caenorhabditis elegans with 2 samples.

Results

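The cytosolic ribosomal protein genes of Caenorhabditis elegans were taken as all protein-coding genes of the Ensembl WBcel235 annotation, release 115, whose symbol is rpl- or rps- followed by a digit. This gave 78 of 19973 protein-coding genes, 47 for the large subunit and 31 for the small subunit. Symbols alone decide membership, but the family was picked with earlier results of these data known. The stalk genes rla-0 to rla-2, the ubiquitin fusions and rack-1 have other symbols and are given separately.

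Ribosomal proteins coat and fold the ribosomal RNA of the particle that translates every cytosolic message. They are needed in near equal amounts, and their genes are among the most highly expressed in growing animal cells, with their output lowered when food is short. In this nematode the annotated start of a gene is often the site where a spliced leader is joined to the message, so that transcription can begin upstream of it.

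The data came from chromatin immunoprecipitation and sequencing of MAB-9, a T-box transcription factor known for its work in the hindgut, the male tail and motor neurons. There was 1 group, of strain RW12257, whose own mab-9 gene on chromosome II carries the CRISPR insertion st12257[mab-9::TY1::EGFP::3xFLAG]. Whole L1 larvae were synchronised by starvation after bleaching, had an age of 6 hours, and gave 2 biological replicates from separate biosamples, both precipitated through the GFP tag. The strain is a single insertion line that also has no untagged counterpart among the samples used here. No file gave counts of reads, which leaves the sequencing depth of both replicates unknown. In whole animals, binding in few cells and weak binding in many cannot be told apart. Control libraries and the binding of other factors were not analysed here, so whether the signals described below are particular to MAB-9 was not tested.

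The conservative list, made by the authors from both replicates, held 1431 peaks. The replicates' own thresholded lists held 824 peaks in replicate 1 and 869 peaks in replicate 2, and their ranked lists, which keep weak peaks too, held 116030 and 90836. A gene was called bound when its start was the nearest protein-coding start to a summit of the conservative list and lay within 2000 bp of it. Signal is the value that the authors' peak caller wrote for a peak, in units the files do not define. Genes are compared within 1 list. Values of both replicates stand side by side, but their scales differ: over all genes the median log2 ratio of replicate 1 to replicate 2 was 0.34 (SD 0.55). With 1 group and no control group, no test over samples was possible, and no test of the gene list was made: counts stand beside the same counts over all genes.

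Before the values, the sequences at the summits with the 8 highest signals are shown, except that of rpl-27, in order of signal, because the letters around the summits bear on what these genes share. Each comes from the RefSeq assembly of ce11 (WBcel235), reaches 100 bp to either side of a conservative summit and is written 5′ to 3′ in the direction of the ribosomal protein gene. Capitals mark ACCGTA or its reverse complement TACGGT, a 6-mer that was picked out after the sequences had been compared.
rpl-3 (chrIII:3867466-3867666, plus strand): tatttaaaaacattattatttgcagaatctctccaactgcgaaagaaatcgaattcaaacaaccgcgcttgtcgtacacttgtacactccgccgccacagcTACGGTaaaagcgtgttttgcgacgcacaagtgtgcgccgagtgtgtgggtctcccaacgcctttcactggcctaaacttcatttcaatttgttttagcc
rpl-35 (chrIII:7854590-7854790, plus strand): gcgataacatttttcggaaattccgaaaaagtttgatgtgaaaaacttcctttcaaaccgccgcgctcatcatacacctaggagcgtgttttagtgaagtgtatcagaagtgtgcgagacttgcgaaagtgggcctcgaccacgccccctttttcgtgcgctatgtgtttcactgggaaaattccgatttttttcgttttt
rpl-20 (chrIV:4749964-4750164, minus strand): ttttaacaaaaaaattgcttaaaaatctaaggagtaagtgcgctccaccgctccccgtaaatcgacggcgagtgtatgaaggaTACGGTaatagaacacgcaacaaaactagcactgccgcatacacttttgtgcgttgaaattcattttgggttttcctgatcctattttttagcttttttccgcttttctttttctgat
rpl-15 (chrIV:654825-655025, minus strand): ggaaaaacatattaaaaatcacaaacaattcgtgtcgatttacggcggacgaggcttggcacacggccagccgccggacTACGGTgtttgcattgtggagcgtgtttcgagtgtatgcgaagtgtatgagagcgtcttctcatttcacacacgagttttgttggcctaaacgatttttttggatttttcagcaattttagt
rps-1 (chrIII:4475554-4475754, plus strand): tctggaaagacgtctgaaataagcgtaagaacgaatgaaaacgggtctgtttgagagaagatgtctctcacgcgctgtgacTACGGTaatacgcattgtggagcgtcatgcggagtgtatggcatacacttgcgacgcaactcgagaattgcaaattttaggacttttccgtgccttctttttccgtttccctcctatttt
rpl-12 (chrIV:13240594-13240794, minus strand): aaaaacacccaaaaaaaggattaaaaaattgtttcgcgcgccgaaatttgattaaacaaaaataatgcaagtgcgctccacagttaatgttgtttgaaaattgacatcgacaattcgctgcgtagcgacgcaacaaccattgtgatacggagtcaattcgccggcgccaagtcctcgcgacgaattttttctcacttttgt
rps-12 (chrIII:5679028-5679228, plus strand): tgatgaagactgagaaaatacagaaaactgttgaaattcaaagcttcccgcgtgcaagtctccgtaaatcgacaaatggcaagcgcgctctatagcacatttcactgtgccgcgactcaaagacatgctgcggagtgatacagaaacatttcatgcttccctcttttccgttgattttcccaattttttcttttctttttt
Of these 7 windows, 4 held the marked letters, which began 1 bp downstream of the summit at rpl-3, 17 bp upstream at rpl-20, 21 bp upstream at rpl-15 and 19 bp upstream at rps-1. The windows of rpl-35, rpl-12 and rps-12 held none. Over all 35 summits of ribosomal protein genes, 15 windows held a copy and 20 held none, against 8.11% of all conservative summits with a copy. Of the windows with a copy, 8 belonged to the bound genes whose windows ranked the 6-mer, so the total is no finding. The other 7 had no part in that ranking. The 6-mer was singled out after the sequences had been compared, so these 7 are no independent check either. The copies in all 15 windows began 1 to 68 bp from the summit, at a median of 21 bp. Along the direction of the gene, 8 of the 15 read ACCGTA and 7 read TACGGT.

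Of the ribosomal protein genes, 20 of 78 were bound (25.6%, exact binomial 95% interval 16.4 to 36.8%), against 925 of 19973 protein-coding genes (4.63%). The bound genes were 13 of 47 for the large subunit (27.7%) and 7 of 31 for the small subunit (22.6%). A count by nearest start leaves out a gene whose summit lies closer to a neighbour. Counting any conservative summit within 2000 bp, 36 ribosomal protein genes had one (46.2%, interval 34.8 to 57.8%), against 7.43% of all protein-coding genes. These were 22 large subunit genes (46.8%) and 14 small subunit genes (45.2%), so the shares of the subunits lay well inside each other's intervals. The remaining 42 ribosomal protein genes had no such summit. The intervals treat genes as independent and cover counting error only.

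**Figure D1:**
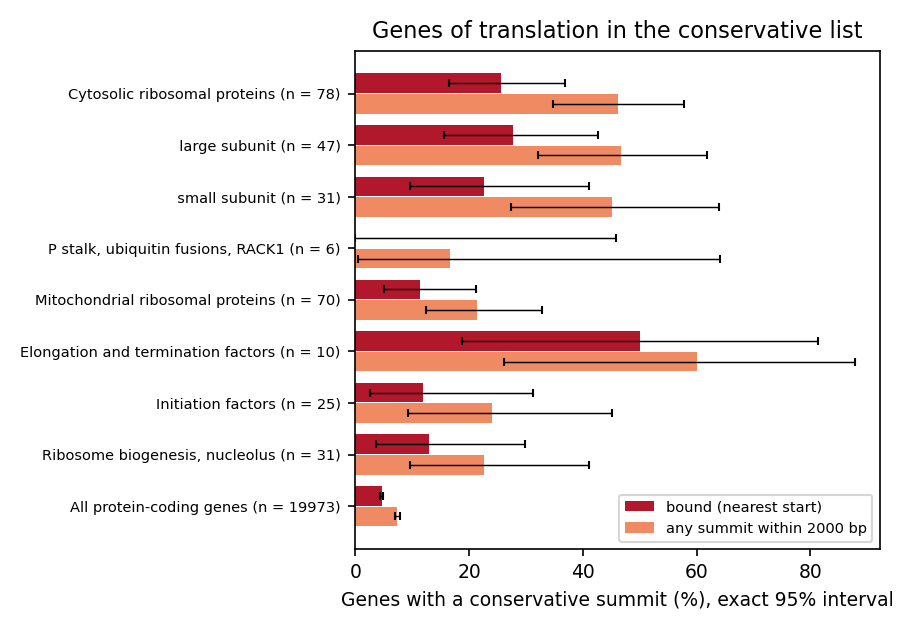
Share of genes with a conservative summit, in percent, for cytosolic ribosomal proteins, their subunits, other lists of the translation machinery and all protein-coding genes; dark bars count genes whose start is nearest to a summit within 2000 bp, light bars count any summit within 2000 bp, and error bars are exact 95% intervals. The light bar reaches 46.2% for cytosolic ribosomal proteins, against 21.4% for mitochondrial ribosomal proteins and 7.43% for all genes.

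The replicates' own lists gave smaller counts of bound genes. In replicate 1, 14 ribosomal protein genes were bound by nearest start, 10 large and 4 small, where the share of all genes was 2.88%. In replicate 2 there were 16, 12 large and 4 small, where the share of all genes was 3.10%. The 14 genes of replicate 1 were all among the 16 of replicate 2, and all 14 were bound in the conservative list. The 2 found in replicate 2 alone were rpl-22 and rpl-24.1. Counting any summit within 2000 bp, 26 ribosomal protein genes had one in replicate 1 (33.3%, against 4.89% of all genes) and 31 in replicate 2 (39.7%, against 5.27% of all genes).

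Among large subunit genes the highest signal was at rpl-3 (WBGene00004414), whose yeast counterpart reaches towards the peptidyl transferase centre. Its peak, on chromosome III from 3867465 to 3867678, had a signal of 719, second of the 1431, and its summit lay 288 bp upstream of the start. The strongest signal near the start was 365 in replicate 1 and 359 in replicate 2. rpl-35 (WBGene00004449), whose yeast counterpart lies beside the exit of the nascent chain tunnel, had the fourth highest signal of the list, 624, with 306 in each replicate. Its summit lay 444 bp upstream, farther from the start than at all but 1 of the bound ribosomal protein genes. rpl-15 (WBGene00004427) followed with 463 in the conservative list, 219 in replicate 1 and 234 in replicate 2, and a summit 349 bp upstream. These were the 3 highest signals among the bound genes of this subunit.

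rpl-12 (WBGene00004424), whose protein forms the base of the ribosomal stalk in yeast and mammals, had a signal of 348 at rank 53, with 163 in replicate 1 and 183 in replicate 2. Its summit lay 43 bp upstream, the closest of all to a start. rpl-7A (WBGene00004419) had 258 at rank 120, 142 in replicate 1 and 119 in replicate 2, with a summit 82 bp upstream. rpl-12 and rpl-7A were the only bound ribosomal protein genes with a summit less than 150 bp from the start.

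rpl-11.2 (WBGene00004423), on the X chromosome, encodes a protein that in yeast and mammals enters the large subunit together with RPL5 and the 5S rRNA. Its signal was 219 at rank 183, with 115 in replicate 1 and 108 in replicate 2, and its summit lay 415 bp upstream. Its paralogue rpl-11.1 had no conservative summit within 2000 bp, and its strongest signals were 28.3 in replicate 1 and 18.7 in replicate 2. rpl-5, the partner in that complex, was bound with a signal of 98.2 at rank 723, 44.8 in replicate 1 and 51.5 in replicate 2. Of these 3 genes, rpl-11.2 had the highest signal in both replicates and rpl-11.1 the lowest.

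The remaining bound large subunit genes ranged more widely. rpl-24.2 had a signal of 210, with 95.5 in replicate 1 and 123 in replicate 2, and its summit, 162 bp upstream, lay inside the neighbouring gene C03D6.1. rpl-41.2, which encodes one of the shortest proteins of the ribosome, had 199.6 in the conservative list, with 118 in replicate 1 and 84.5 in replicate 2. rpl-29 had 159, rpl-25.2 had 109 and rpl-14 had 77.7. At rpl-14 replicate 1 had a summit of 33.9 at 914 bp upstream and one of almost the same signal, also 33.9, at the conservative summit 315 bp upstream. rpl-32 had 70.1, with 41.4 in replicate 1 and 28.1 in replicate 2, and its summit lay 193 bp downstream of the start, within the gene.

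Among small subunit genes rps-1 (WBGene00004470) had the highest signal, 452 at rank 25, with 249 in replicate 1 and 205 in replicate 2 and a summit 264 bp upstream. rps-23 (WBGene00004492), whose protein governs decoding accuracy in yeast, had 269 at rank 103, with 130 in replicate 1 and 129 in replicate 2, 266 bp upstream. The strongest summits near rps-23 lay 273 bp upstream in replicate 1 and 268 bp in replicate 2, close to that site. Both replicates' own lists held a peak near rps-23 whose summit was nearer another start. The call by nearest start thus differed between the lists. rps-24 (WBGene00004493) had 224 at rank 171, with 136 in replicate 1 and 92.1 in replicate 2, 311 bp upstream. Of these 3 genes the replicates were furthest apart at rps-24.

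rps-28, whose protein lies at the mRNA exit channel in yeast, had a signal of 175, with 81.5 in replicate 1 and 98.5 in replicate 2. rps-14 had 109, with 53.9 in replicate 1 and 65.8 in replicate 2. rps-21 had 63.9, with 37.2 in replicate 1 and 33.0 in replicate 2 near the called site, 304 and 320 bp upstream. The strongest summit of replicate 1 within 2000 bp, 38, lay elsewhere, 955 bp downstream. rps-21 ranked 1314 of 1431 and was in neither replicate's own list. rps-26, another protein of the exit channel in yeast, was called bound through a weak summit of 54.8 that lay 249 bp downstream of the start, inside the gene. A stronger summit of 183.7 lay 423 bp upstream of rps-26 but only 34 bp from the start of tmem-107, and the values near rps-26 in the replicates, 97.6 and 93.2, belong to that upstream site.

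**Figure D2:**
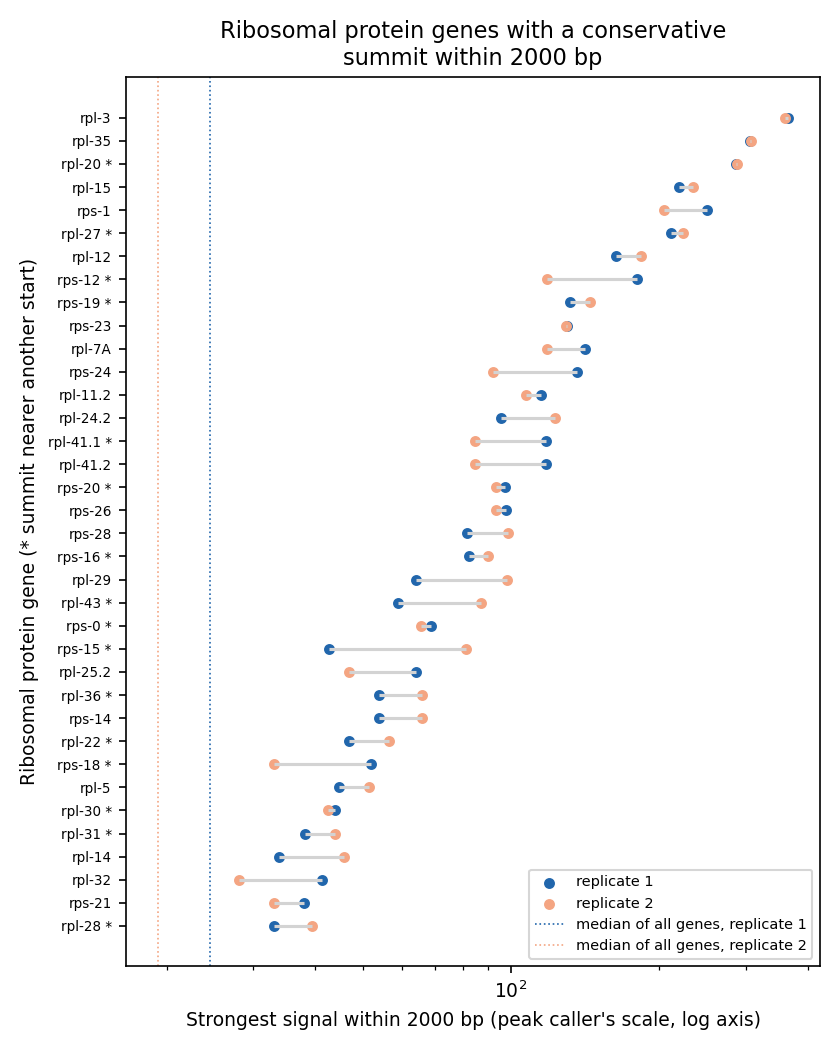
Strongest peak signal within 2000 bp of the start, on the peak caller's scale (log axis), for the 36 ribosomal protein genes with a conservative summit there; points are replicate 1 and replicate 2, grey lines join them, dotted lines are the medians of all genes, and an asterisk marks a gene that was not called bound because the summit is nearer another start. All 36 genes lie above both dotted lines, and the order runs down from rpl-3. Of other genes with such a summit, 99.9% lie above the median of all genes in replicate 1 and 99.6% in replicate 2.

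For 16 more ribosomal protein genes the conservative summit within 2000 bp lay nearer the start of another gene. In 13 of these (81.2%) the neighbour was divergent, that is, read from the same stretch in the opposite direction, against 371 of 559 (66.4%) such cases over all genes. The strongest was rpl-20, with a signal of 576 at rank 9 and 286 in replicate 1 and 288 in replicate 2. Its summit lay 286 bp from rpl-20 and 176 bp from Y17G9B.5. Among small subunit genes rps-12 had 298, with 180 in replicate 1 and 118 in replicate 2, in a gap of 293 bp between its start and that of ska-3. rps-19, whose human counterpart is mutated in Diamond-Blackfan anaemia, had 273, with 132 in replicate 1 and 145 in replicate 2, and shared its gap with hsr-9. These 3 signals were in the range of the strongest bound genes.

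rpl-30 had a signal of 86.9, with 43.9 in replicate 1 and 42.6 in replicate 2, at a summit 385 bp from its start and 7 bp from that of pab-1, which encodes poly(A)-binding protein. rps-18 had 98.4, with 52.0 in replicate 1 and 33.0 in replicate 2, opposite sec-61.A, a subunit of the translocon of the endoplasmic reticulum. This summit lay 529 bp from the start of rps-18 and 114 bp from that of sec-61.A, outside the 415 bp between those starts. rpl-28 had 60.7, with 33.0 in replicate 1 and 39.4 in replicate 2, opposite mrpl-49 of the mitochondrial ribosome. rpl-36 and rps-14 shared a single summit of 109 between them, 398 bp and 265 bp from their starts. rpl-22 had 100.1, with 47.0 in replicate 1 and 56.5 in replicate 2, opposite ify-1, the securin of this nematode.

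The other divergent cases were rps-20 opposite ekl-4 with 198, rpl-43 opposite Y48B6A.1 with 144, rps-0 opposite rbg-3 with 135, rps-15 opposite F36A2.9 with 121 and rpl-31 opposite sac-2 with 83.2. In the 3 remaining cases the neighbour was on the same strand. At rpl-27 the summit, with a signal of 448, lay 715 bp downstream of its start and 63 bp from egl-30, which encodes a Gq alpha subunit. At rps-16 the summit, with 170.5, lay 1728 bp upstream and 46 bp from fib-1, which encodes the nucleolar protein fibrillarin. At rpl-41.1 it was the summit of rpl-41.2, 830 bp downstream. Together with rpl-43, at 755 bp, these 3 had the most distant summits of the ribosomal protein genes. The gene just inside the limit was rps-16, at 1728 bp, and those just outside were rpl-9, 2337 bp from a summit of 105, and rpl-25.1, 3060 bp from a summit of 142.

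A divergent neighbour was common at these genes whether or not a summit was present. A start on the opposite strand within 1000 bp upstream was found for 47 of 78 ribosomal protein genes (60.3%), against 17.5% of all genes. A conservative summit lay within 2000 bp of 23 of those 47 (48.9%), against 14.6% of all genes with a divergent neighbour. Of the 31 ribosomal protein genes without such a neighbour, 13 had a summit (41.9%), against 5.92% of all genes without one.

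The summits sat at a narrow range of distances. In the 20 bound ribosomal protein genes the median was 279.5 bp upstream of the start, and 18 of 20 summits (90%) were upstream. Of the 20, 16 (80.0%) lay 150 to 450 bp upstream, against 283 of the 905 other bound genes (31.3%), whose median was 167 bp upstream. Over all 36 genes with a summit the median was 293.5 bp upstream and 28 (77.8%) lay in that range, against 28.6% of all genes with a summit. The median was 298.5 bp upstream for the 14 genes of replicate 1's own list and 275.0 bp for the 16 of replicate 2's. The range of 150 to 450 bp was chosen after the distances had been seen.

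**Figure D3:**
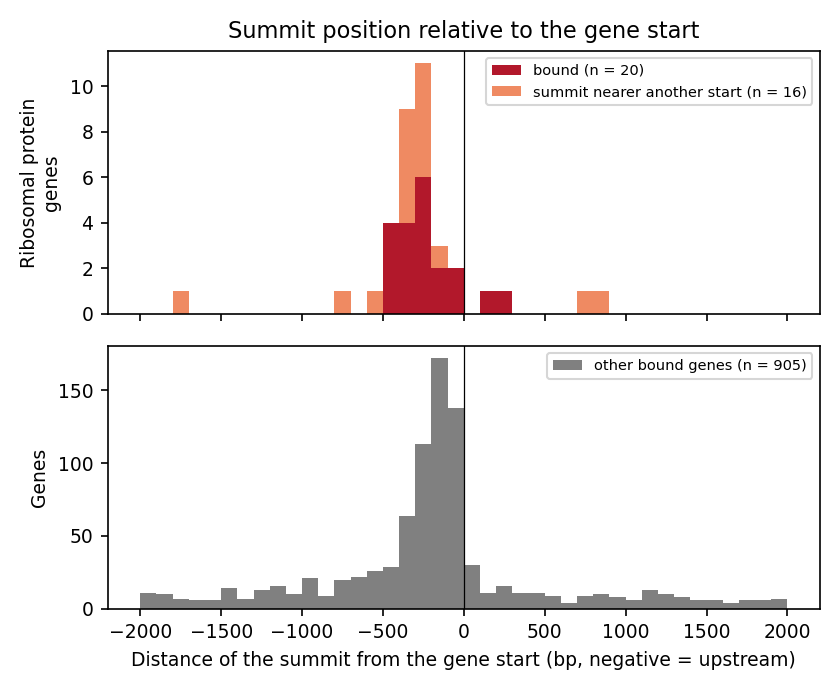
Histograms, in bins of 100 bp, of the distance of the summit from the gene start in bp, with negative values upstream; the upper panel counts ribosomal protein genes, bound or with a summit nearer another start, and the lower panel counts the 905 other bound genes. Ribosomal protein genes gather between 150 and 450 bp upstream, whereas the other bound genes spread from the start outwards.

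Signals were also read without any call, as the strongest summit within 2000 bp of each start in the ranked lists. Every ribosomal protein gene had such a summit in both replicates. The median was 36.8 in replicate 1, with a range of 10.2 to 365, against 24.5 over all genes. In replicate 2 it was 38.6, with a range of 6.79 to 359, against 19.2 over all genes. When a summit counted only for the gene whose start was nearest, the medians fell to 29.0 in replicate 1, against 22.4 over all genes, and to 23.8 in replicate 2, against 17.7 over all genes. Large subunit genes had medians of 37.2 and 42.1 in replicates 1 and 2, and small subunit genes had 36.4 and 36.9. In both replicates 33 of the 78 genes (42.3%), 20 large and 13 small, were in the top 10% of all genes, against 6.27% of all genes. The limit of the top 10% was 38 in replicate 1 and 31.9 in replicate 2.

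**Figure D4:**
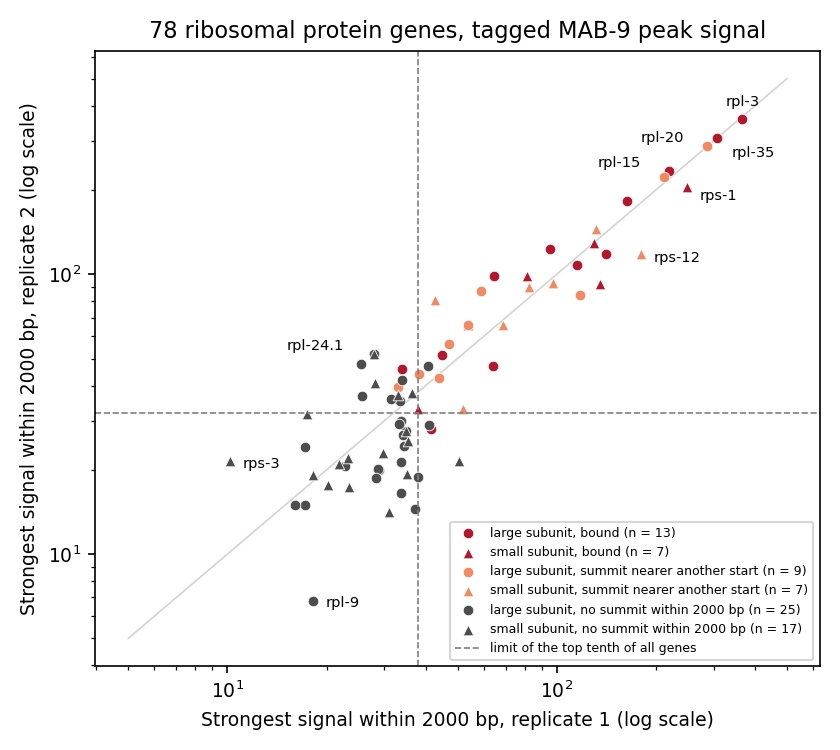
Strongest peak signal within 2000 bp of the start in replicate 1 (x axis) and replicate 2 (y axis), both on log scales, for the 78 ribosomal protein genes; circles are large subunit genes, triangles small subunit genes, colours give the call in the conservative list, and dashed lines mark the top 10% of all genes. 33 genes lie above both dashed lines, and rpl-3 at 365 and 359 stands highest.

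The conservative list keeps peaks that both replicates share, so their positions are a description there. In 34 of the 36 genes with a conservative summit (94.4%) the strongest summits of the replicates were within 100 bp of each other, at a median gap of 16.5 bp, against 89.7% of other genes with a summit. In the 42 genes without a summit this held for 10 (23.8%), at a median gap of 604.5 bp, against 20.9% of other genes without a summit. The median log2 ratio of replicate 1 to replicate 2 was 0.06 over the ribosomal protein genes (SD 0.53), against 0.34 over all genes. The ratio, which also holds the difference in scale, was farthest from 1 at rpl-9, with 18.2 in replicate 1 and 6.79 in replicate 2, rpl-19, with 37.2 and 14.5, and rps-27, with 50.5 and 21.5. None of these 3 had a conservative summit within 2000 bp.

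Calls made in one replicate were then read in the other. The 14 genes called in replicate 1 had signals of 47.0 to 359 in replicate 2, with a median of 113, and all 14 were in its top 10%. The other 64 had a median of 32.4 there, and 32 of them were in the top 10%. Calls were by nearest start. The 64 thus include genes with a replicate 1 summit nearer another start, such as rpl-20, with 288 in replicate 2. The 16 genes called in replicate 2 had signals of 27.9 to 365 in replicate 1, with a median of 116, and 15 were in its top 10%. The exception was rpl-24.1, which shares its summit with the divergent gene rps-10, at 27.9 in replicate 1 and 51.8 in replicate 2. Most bound genes of any kind were also in the top 10%. Of the 925 genes bound in the conservative list, 831 were in that of replicate 2 and 815 in that of replicate 1. Those 925 were called from both replicates together, so they are not a like background. The same reading was not made for all 575 genes called in replicate 1 or all 620 called in replicate 2.

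The median signal of the bound ribosomal protein genes was above that of bound genes at large. It was 106 in replicate 1 and 98.4 in replicate 2, against 59.8 and 53.8 over all bound genes. For all 36 genes with a summit the medians were 88.8 and 91.0, against 61.4 and 55.2 for other genes with a summit. Of the 25 strongest conservative peaks, 4 had a ribosomal protein gene as nearest start and 5 had one within 2000 bp. Of the 100 strongest, these counts were 5 and 9. Over all 1431 conservative peaks, 35 separate summits served the 36 genes, counting the strongest and the bound summit of each gene. Ribosomal protein genes were 78 of the 19973 protein-coding genes. rps-0 and rpl-22 each had a further, weaker summit within 2000 bp that is not among the 35.

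The 42 ribosomal protein genes without a summit were not uniform. Their medians were 30.3 in replicate 1 and 23.5 in replicate 2, against 23.7 and 18.6 for other genes without a summit. The highest means of the replicates were at rpl-18, with 40.8 in replicate 1 and 47.0 in replicate 2, at rpl-24.1 and rps-10, at rpl-1, with 34.0 and 42.1, and at rps-4, with 36.4 and 37.7. The lowest were at rpl-9, at rpl-26, with 16.1 and 15, and at rps-3, whose protein lines the mRNA entry channel in yeast, with 10.2 and 21.4. rps-6, whose protein is the classic substrate of S6 kinase in mammals, was also without a summit, with 35.2 and 19.3. It was chosen for its role after its values were seen.

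By chromosome, summits within 2000 bp were found for 12 of 23 ribosomal protein genes on I (9.83% of all its genes), 4 of 10 on II (7.25%), 8 of 18 on III (11.5%), 9 of 17 on IV (6.74%), 2 of 8 on V (5.05%) and 1 of 2 on X (6.37%). Both genes on V had a summit nearer another start, and 0 of its 8 ribosomal protein genes were bound, against 2.94% of all its genes. Few of the 35 summits lay within 200 bp of a noncoding gene: 0 near a tRNA gene, against 3.35% of all conservative summits, 1 near a snoRNA gene (2.86%), against 3.00%, and 4 near another noncoding RNA gene (11.4%), against 17.7%.

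Known patterns of letters were looked for, on both strands, in windows of the same length at the summits of the 20 bound genes, of the 15 other ribosomal protein summits, of all conservative summits, and of promoters of all genes centred 280 bp upstream of the start. The T-box site AGGTGTGA was in 0 of 20 windows (exact upper limit 16.8%) and 0 of 15 (21.8%), against 0.210% of all conservative summits and 0.391% of promoters. AGGTGT, contained in that site, was in 1 of 20 (5.00%) and 0 of 15, against 4.96% and 5.70%. GGTGTG, which overlaps AGGTGT, was also in 1 of 20 and 0 of 15, against 7.62% and 4.84%. In promoter windows of the 42 ribosomal protein genes without a summit, AGGTGTGA and AGGTGT were in 0 and GGTGTG in 4. Counts this small do not separate the ribosomal protein windows from the others.

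Of the other patterns, GAGAGA was the most frequent, in 8 of 20 windows (40.0%, but 20% in windows reaching 50 bp to each side) and 1 of 15, against 37.7% of all conservative summits and 12.3% of promoters. The longer GAGAGAGA, which contains it, was in 0 of 20 and 0 of 15, against 9.64% and 1.83%. ACGCAG was in 5 of 20 (25%) and 2 of 15, against 22.2% and 5.16%. CACGTG, the E-box, was in 2 of 20 and 0 of 15, against 7.20% and 3.18%. GGGCGG was in 2 of 20 and 1 of 15, against 10.3% and 3.93%. TGATAA, a site of zinc finger factors of the intestine, was in 2 of 20 and 1 of 15, against 8.39% and 20%. TATAAA, the TATA box, was in 1 of 20 and 1 of 15, against 11.3% and 24.3%. Promoter windows of the 42 ribosomal protein genes without a summit held ACGCAG in 23.8%, GAGAGA in 16.7% and GAGAGAGA in 2.38%. They held GGGCGG in 4.76%, TGATAA in 23.8%, TATAAA in 28.6% and CACGTG in 0. A match is a description of letters and not a bound site. GC content was 43.8% in the windows of the bound genes and 41.4% in the other ribosomal protein windows, against 44.8% at all conservative summits. Promoters of the ribosomal protein genes without a summit had 38.4%, against 34.4% for promoters of all genes.

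All 6-mers, counted together with their reverse complements, were then ranked over the 20 bound windows. Of the 42 that were in at least 8 windows, the 5 with the largest excess over all promoters were CGCCAC in first place, CCACGA in the next, then CTAAAA, followed by ACCGTA, and last GCGAGA. The last letters of CGCCAC overlap with the first of CCACGA. The 20 windows chose these 6-mers, so their counts there are no finding, and the 15 other ribosomal protein windows had no part in the choice of the 5. ACCGTA was singled out among the 5 after the sequences had been compared, and it had the highest share in the 15. Its share there is therefore not an independent check of that 6-mer. ACCGTA was in 8 of the 20 and in 7 of the 15 (46.7%), against 7.23% of the 1396 remaining conservative summits and 6.07% of all promoters. GCGAGA was in 6 of the 15 (40.0%), against 19% of the remaining summits and 6.09% of all promoters. CGCCAC was in 3 of the 15 (20%), against 8.52% and 3.55%, CCACGA in 2 (13.3%), against 8.24% and 4.6%, and CTAAAA in 4 (26.7%), against 12.7% and 25.4%. In promoter windows of the ribosomal protein genes without a summit, ACCGTA was in 35.7%, GCGAGA in 38.1% and CTAAAA in 38.1%. CGCCAC was in 4.76% and CCACGA in 9.52% of those windows.

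ACCGTA was also present upstream of ribosomal protein genes that carried no conservative summit. It lay within 500 bp upstream of the start in 36 of the 78 genes (46.2%), 25 of 47 large subunit genes (53.2%) and 11 of 31 small subunit genes (35.5%), against 13.9% of all genes and 18.5% of all bound genes. These counts of ribosomal protein genes include those whose bound summits ranked the 6-mers, so they are no finding. With those genes left out, ACCGTA was upstream of 22 of the 42 genes without a summit (52.4%). It was also upstream of 4 of the 14 genes whose summit had no part in the ranking (28.6%). Over all 78 genes, bound genes included, the copies lay at a median of 289 bp upstream. Of these copies, 26 read ACCGTA on the strand of the gene and 11 on the opposite strand, with only rps-25 holding more than 1. Among other lists it was upstream of 11 of 70 mitochondrial ribosomal protein genes (15.7%) and 4 of 10 elongation and termination factor genes (40.0%). For the other 6-mers the genes with a bound summit are left out, since their windows made the choice. GCGAGA was upstream of 28.6% of the 14 genes and 47.6% of the 42 without a summit, against 14.4% of all genes. CGCCAC was upstream of 2 of the 14 (14.3%) and 9.52% of the 42, against 8.42% of all genes. CCACGA was upstream of 5 of the 14 (35.7%) and 11.9% of the 42, against 10.4% of all genes. CTAAAA was upstream of 6 of the 14 (42.9%) and 71.4% of the 42, against 51.4% of all genes. With 14 genes these shares are coarse, and no difference was tested.

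**Figure D5:**
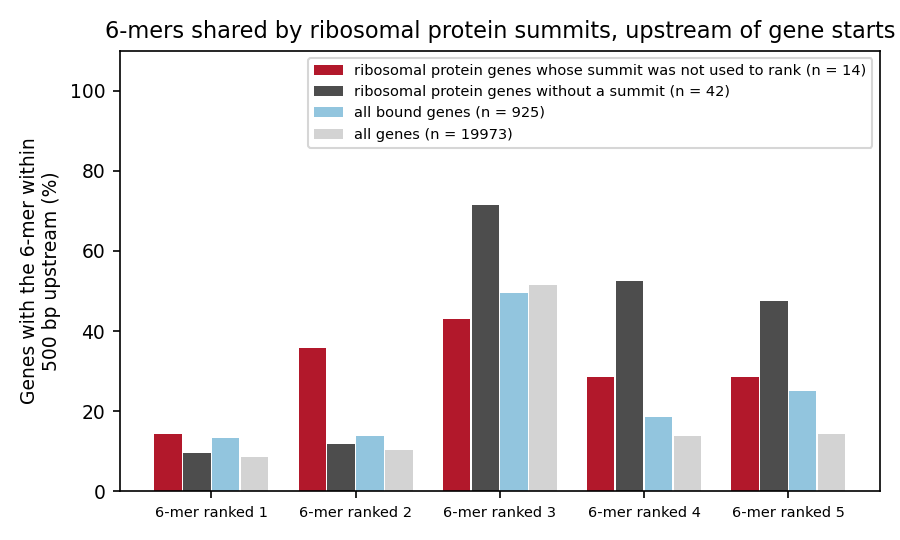
Share of genes, in percent, with each of 5 6-mers within 500 bp upstream of the start, counting both strands, for the 14 ribosomal protein genes whose conservative summit had no part in ranking the 6-mers, the 42 without a summit, all bound genes and all genes; rank 1 is CGCCAC, rank 2 is CCACGA, rank 3 is CTAAAA, rank 4 is ACCGTA and rank 5 is GCGAGA. Rank 4 is at 28.6% for the 14 genes and 52.4% for the 42, against 13.9% for all genes.

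Other genes of the translation machinery were counted in the same way. None of the 6 genes for the P stalk, the ubiquitin fusions and RACK1 was bound. The stalk genes rla-0, rla-1 and rla-2 encode the acidic proteins that recruit translation factors. rla-0 had 28.4 in replicate 1 and 14.7 in replicate 2, rla-1 had 25.5 and 41.4, and rla-2 had no summit in replicate 1 and 8.67 in replicate 2. The ubiquitin fusion gene ubl-1 had 33.8 and 35.4, and rack-1, a scaffold on the small subunit, had 35 and 14.3. The ubiquitin fusion gene ubq-2 had 61.4 and 49.5, and was the only one of the 6 with a conservative summit within 2000 bp, of 108 at 507 bp upstream, nearer frg-1.

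Of 70 mitochondrial ribosomal protein genes, 8 were bound (11.4%) and 15 had any summit (21.4%), led by mrpl-28 at 200.7, mrpl-18 at 195 and mrps-7 at 174. Of 10 elongation and termination factor genes, 5 were bound (50%) and 6 had any summit, led by iff-2 at 261, eef-1B.1 at 238 and eef-2 at 219. These factors bring aminoacyl-tRNA to the ribosome, move it along the message or release the chain. Of 25 initiation factor genes, 3 were bound (12%), all of the eIF3 complex: eif-3.C at 284, eif-3.B at 139 and eif-3.E at 74.7. Of 31 ribosome biogenesis and nucleolar genes, 4 were bound (12.9%), led by fib-1 at 170.5, wdr-46 at 128 and nol-56 at 113. The exact 95% intervals of these shares were 5.07 to 21.3% for the mitochondrial ribosomal proteins and 18.7 to 81.3% for the elongation and termination factors. Those of the initiation factors, 2.55 to 31.2%, and of the biogenesis genes, 3.63 to 29.8%, include the 4.63% of all genes. Counting any summit within 2000 bp, 6 initiation factor genes had one (24.0%, interval 9.36 to 45.1%). So did 7 biogenesis genes (22.6%, interval 9.59 to 41.1%). The share of all genes was 7.43%. All of these intervals treat genes as independent, and the lists were chosen with earlier results known, so none is a test.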

How the data were processed

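The measurements are peaks of GFP-tagged MAB-9, precipitated from 2 biological replicates of 1 group of whole larvae. The deposited signal of each peak is the value of the authors' peak caller, whose scale the files do not define. Per the file headers, each list was built from aligned reads together with a control, on ce11. Aligner and peak caller, with versions, are not given in the sources used here, and neither are read depths. Peaks of the ranked lists include many weak ones, so a strongest value within a fixed distance also depends on how many were listed.

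Summits were assigned to Ensembl release 115 gene starts within 2000 bp, and bases were read from RefSeq's assembly of that build. Intervals are exact binomial. Named genes are all bound members, those with a summit nearer another start, the 5 highest and 3 lowest of the rest, those at the limit, the 3 with the largest replicate differences, and up to 3 per other list. The members and lists were chosen with earlier results of these data known. Of the listed names, 11 elongation and termination factors matched 10 genes, 28 initiation factors 25 and 35 biogenesis factors 31. Alternatives were other peak lists, distances, assignments and windows. The code was tested on simulated data. Scripts ran under Python 3.11.15 with pandas 2.3.3, NumPy 2.4.6 and SciPy 1.17.1, and figures used matplotlib 3.10.9.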

Additional observations from a re-analysis of the deposited data

How the results depend on the processing

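No paired analysis was possible because there is only 1 group. The count of 20 bound ribosomal protein genes was 18 in the other pooled list (4.75% of all genes), 15 with conservative peaks at or above the median signal (2.69%), and 20 with limits of 1000 bp (3.81%) and 500 bp (3.11%). Counting any summit within 2000 bp gave 36 (7.43%), with 22 for the large and 14 for the small subunit. The median strongest signal in replicate 1 was 35 within 1000 bp, 33.7 within 500 bp and 29.0 when only summits nearest the gene's own start counted. In replicate 2 it was 36.9 within 500 bp and 23.8 for nearest summits. The main values were 36.8 and 38.6, and nearest summits gave 22.4 and 17.7 over all genes. CACGTG was in 0 windows of the other pooled list, and TATAAA in 0 of the windows reaching 50 bp to each side. Using each replicate's own list in place of both, bound genes ranged from 14 to 16, large subunit genes from 10 to 12, small subunit genes dropped to 4 in both, against 7, and bound mitochondrial ribosomal protein genes ranged from 5 to 6. The median position ranged from -298.5 to -275.0 bp, CACGTG from 0 to 6.25%, and GGTGTG and TATAAA dropped to 0 in both, against 5.00%. GAGAGA was in 20% of bound windows reaching 50 bp to each side, against 40.0%. The replicates' own lists held 824 and 869 peaks, against 1431 in the conservative list. The cause of the shifts was not tested. ACCGTA was in 20% of bound windows reaching 50 bp to each side and 45% of those reaching 150 bp, lengths chosen after seeing the data. Depth is unknown, so a gene without a summit is not shown to be unbound.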
